A study of Mus musculus with 3 samples.

Results

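The 8 genes described here encode the 5 somatostatin receptors of the mouse, Sstr1 to Sstr5, and 3 receptors of neuropeptide Y (NPY), Npy1r, Npy2r and Npy5r. They were chosen by gene symbol, with no measured value in the rule, and all 8 were found among the 54532 genes of the deposited table. RNA-seq was run on prelimbic cortex (PrL) tissue, a medial part of the prefrontal cortex, of male C57BL/6J mice bought at 6 to 8 weeks of age and thus older when the tissue was taken. Every mouse behind the libraries had an AAV9 vector injected into the PrL of both hemispheres and then 5 weeks of chronic unpredictable mild stress (CUMS), a changing series of mild stressors. The design asked how the PrL transcriptome of stressed mice differed with the circular RNA circFKBP8(5S,6), or with the protein cFKBP8 translated from it, overexpressed in neurons.

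The CUMS vehicle group received a vector with the neuronal hSyn promoter and no insert, followed by CMV-EGFP. In the CUMS oe-circ group the same vector carried circFKBP8 behind hSyn, again with CMV-EGFP. In the CUMS oe-pep group hSyn drove the peptide with a 3×Flag tag, joined to EGFP by P2A. Each group had 1 library, so there was no replicate error, no test of groups and no P value. The number of mice behind a library is not given in the sources used here, and no unstressed library was analysed here. The table lists mouse genes, so the level of the human circRNA or peptide from the vectors was not analysed here. In bulk tissue, fewer cells of a type and less RNA per cell cannot be told apart.

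Somatostatin and NPY are peptides that cortical GABA neurons release, often from the same cells, and both act through G protein-coupled receptors of the Gi/o class. These receptors lower adenylyl cyclase activity, open inwardly rectifying potassium channels and reduce transmitter release. In the rodent brain Npy1r is known mainly as a postsynaptic receptor and Npy2r as a presynaptic receptor that also limits the release of NPY itself, while Sstr3 sits in the primary cilium of neurons. The prefrontal somatostatin system is much studied in depression and chronic stress.

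The vehicle library held 18084058 recovered reads in genes, the oe-circ library 14413544 and the oe-pep library 16410635. Levels are FPKM, fragments scaled by gene length and by library size, and 1 read in a gene of 1 kb was worth an FPKM of 0.0540, 0.0687 and 0.0597 in that order. Reads were recovered from the deposited FPKM and gene lengths, and 95% intervals (exact Poisson for a level, exact conditional binomial for a ratio of 2 libraries) cover counting error alone, compare libraries and not conditions, and say nothing of the spread between mice. Log2 fold changes were taken after adding 0.1 to each FPKM, so those of low genes are understated. A gene counted as higher or lower past the size threshold when it differed more than 2-fold on that scale, among the 20203 genes tested, those whose mean FPKM reached 0.1. Markers of tissue next to the PrL were not even across the libraries, and their values are given after those of the receptors.

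Each receptor gene is a separate locus in mm10, and the coordinates here are those of the authors' table. Sstr1 lies at chr12:58211772-58214444 on the plus strand, Sstr2 at chr11:113619342-113626028 (plus), Sstr3 at chr15:78537008-78544685 (minus), Sstr4 at chr2:148395344-148396767 (plus) and Sstr5 at chr17:25489875-25497288 (minus). Npy2r lies at chr3:82538383-82548084 on the minus strand. Npy1r (chr8:66697192-66706792, plus) and Npy5r (chr8:66679965-66688128, minus) are neighbours that face away from each other, 9064 bases apart. Sstr4 has 1 exon, and its 385 codons make up most of its length of 1424 bases, while 70.2% of the counted length of Sstr3 is noncoding. Between coding sequences, the closest pairs were Sstr1 with Sstr4 at 71.1% identical bases and Sstr3 with Sstr5 at 70.7%. The NPY receptor genes shared 58.7% to 60.7% with each other, and no transcript of another gene matched any of the 8 at 95% identity or more over at least 50% of its length. Sstr2 overlaps Slc39a11 on the opposite strand, and the strand setting of the counting is not given in the sources used here, so reads of these genes could be mixed.

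Start regions are shown for the 4 receptors whose levels differed most between the libraries among those with an entry, to set the sequences of the loci beside their values. They come from a RefSeq table on GRCm38.p6, run from 250 bases before to 50 bases after the start, and cover 6 of the 8 receptors, not Sstr1 or Sstr5. Capitals mark matches, on either strand, to any of 5 motifs. The first is the cAMP response element (CRE), written TGACGTCA, and the second is its core, TGACG, which every full CRE also holds. The others are the GC box, spelled GGGCGG in this search, the TATA box, for which TATAAA was searched, and the E-box of the form CACGTG. The order is Sstr4 at chr2:148395127-148395426 (plus), Npy2r at chr3:82548036-82548335 (minus), Npy1r at chr8:66697172-66697471 (plus) and Npy5r at chr8:66688045-66688344 (minus).
Sstr4: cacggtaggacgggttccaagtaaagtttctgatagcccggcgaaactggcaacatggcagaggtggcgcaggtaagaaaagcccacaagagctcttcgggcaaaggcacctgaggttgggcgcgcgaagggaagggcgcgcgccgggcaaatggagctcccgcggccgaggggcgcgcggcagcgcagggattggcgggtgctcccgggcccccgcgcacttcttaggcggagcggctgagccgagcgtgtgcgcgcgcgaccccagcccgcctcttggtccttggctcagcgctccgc
Npy2r: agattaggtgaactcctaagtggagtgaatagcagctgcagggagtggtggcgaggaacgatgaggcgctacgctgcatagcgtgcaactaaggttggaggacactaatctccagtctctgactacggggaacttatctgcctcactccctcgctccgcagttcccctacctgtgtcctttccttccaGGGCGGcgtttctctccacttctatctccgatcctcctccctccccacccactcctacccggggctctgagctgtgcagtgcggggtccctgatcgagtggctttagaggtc
Npy1r: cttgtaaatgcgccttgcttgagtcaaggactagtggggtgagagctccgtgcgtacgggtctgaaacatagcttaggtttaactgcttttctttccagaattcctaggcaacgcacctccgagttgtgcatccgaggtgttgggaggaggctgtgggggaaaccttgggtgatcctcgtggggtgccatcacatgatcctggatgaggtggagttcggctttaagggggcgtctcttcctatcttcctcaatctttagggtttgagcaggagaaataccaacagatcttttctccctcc
Npy5r: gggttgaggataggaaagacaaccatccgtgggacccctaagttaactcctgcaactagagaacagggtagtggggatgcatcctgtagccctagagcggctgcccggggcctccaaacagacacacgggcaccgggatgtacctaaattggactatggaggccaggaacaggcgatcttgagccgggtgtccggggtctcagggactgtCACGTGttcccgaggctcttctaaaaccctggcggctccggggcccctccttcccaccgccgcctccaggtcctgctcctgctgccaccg

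The Sstr4 window was 68.7% G or C with 35 CpG dinucleotides, against medians of 52.7% and 7 over all 32851 windows of that table. The Npy1r window was 51.7% G or C with 10 CpG, and neither it nor the Sstr4 window held any of the 5 motifs. A GC box stood 62 bases before the Npy2r start, a motif held by 35.7% of all windows. An E-box stood 40 bases before the Npy5r start, a motif held by 7.15% of all windows, and Npy5r and Npy1r, though neighbours, shared none of the 5 motifs. The window of Sstr2 (not printed) held a full CRE at position -58 from the start, and that of the somatostatin gene Sst held one at -48, where 1.79% of all windows hold this motif. Sstr2 also held GC boxes at -49 and -11. Also not printed, 1 window of Sstr3 held an E-box at -31 and a CRE core at -9. The window of Npy held a GC box at -95 and that of Cort a CRE core at -18. The CRE core is held by 20.8% of all windows. These matches describe letters and are not evidence of binding.

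The ligands were far more abundant than their receptors in all 3 libraries. Sst, the somatostatin precursor gene, had an FPKM of 370 (vehicle), 321 (oe-circ) and 328 (oe-pep). Npy was at 115, 117 and 107, in the same order. Both overexpression libraries were thus slightly below the vehicle library for Sst, with log2 fold changes of -0.21 and -0.17, and the intervals of these ratios (0.829 to 0.905 and 0.850 to 0.925) did not hold 1. For Npy the log2 fold changes were 0.03 and -0.10, and both intervals held 1. Cort encodes cortistatin, a peptide that also binds the somatostatin receptors. It was at an FPKM of 9.66, 11.9 and 8.38 (121, 117 and 95 reads), close to the levels of Sstr1. Its log2 fold changes were 0.30 and -0.20, again with 1 in both intervals. Pyy and Ppy, the other peptide genes of the NPY family, had 0 reads in all 3 libraries, which at a floor of 3 reads allows an FPKM of up to 0.327 for Pyy and 0.412 for Ppy. The remaining mouse receptors of the family, Npy4r and Npy6r, had 0, 0 and 2 reads and 3, 0 and 0 reads, so no fold is given for them.

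Among the receptors, Sstr1, Sstr2, Sstr3, Sstr4 and Npy1r formed an upper group in all 3 libraries, Npy2r and Npy5r were lower, and Sstr5 was the lowest (plot of levels by library). In the vehicle library Sstr1 was the highest at an FPKM of 9.43, above 75.7% of the tested genes, and Sstr5 the lowest at 0.494, above 24.5%. Sstr1 and Sstr2 did not differ beyond their counting error there, nor did Sstr4, Npy1r and Sstr3 as neighbours in the order, nor Npy2r and Npy5r. The steps that exceeded it were Sstr2 over Sstr4 (FPKM ratio 1.25, 95% interval 1.05 to 1.50), Sstr3 over Npy2r (2.66, 2.21 to 3.20) and Npy5r over Sstr5 (4.75, 3.06 to 7.65). The order was different in the other 2 libraries. Sstr4 was second in oe-circ and first in oe-pep, and Npy2r stood above Npy5r in the vehicle library and below it in both others, although in oe-pep the ratio of Npy5r to Npy2r, 1.15, had an interval of 0.792 to 1.65.

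**Figure D1:**
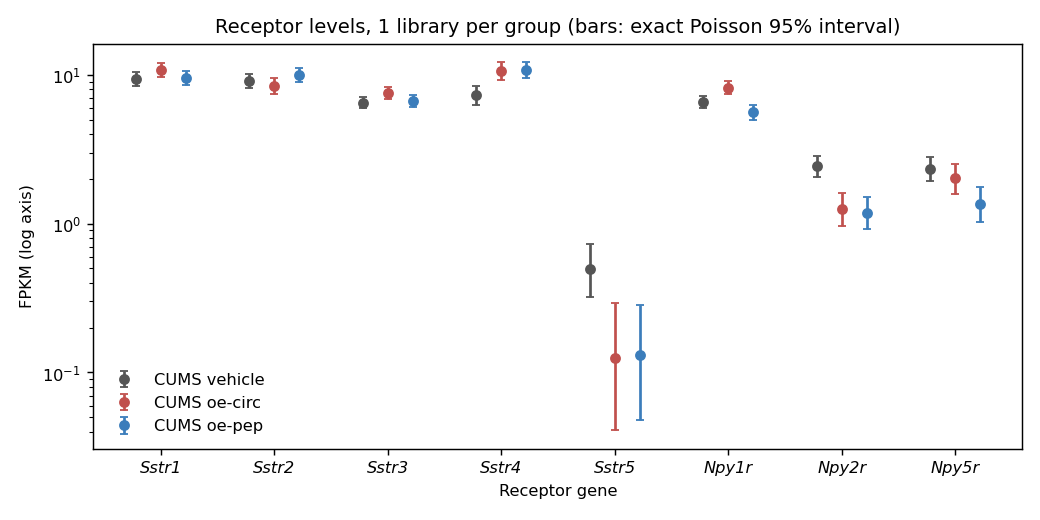
FPKM (log axis) of the 8 receptor genes, 1 point for each of the 3 CUMS libraries with exact Poisson 95% intervals of the counts. Sstr4 sits at 7.29 in the vehicle library and at 10.6 and 10.7 in the other 2, while Npy2r and Sstr5 are highest in the vehicle library.

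In the oe-circ library, 1 of the 8 receptors, Sstr5, was more than 2-fold lower than in the vehicle library, beside 6.42% of all tested genes, and 0 were more than 2-fold higher, beside 3.5%. The median log2 fold change of the 8 was 0.05, and that of all tested genes was -0.00. The interval of the ratio lay wholly below 1 for Sstr5 and Npy2r (2 of 8, beside 12.3% of all tested genes) and wholly above 1 for Sstr3, Sstr4 and Npy1r (3 of 8, beside 12.8%). In either direction this was 5 of 8, beside 25.1%. Intervals narrow as reads increase, and only 14551 of the 20203 tested genes had a mean of at least 20 reads. All receptors but Sstr5 had means of 81.3 reads or more. Counts of intervals and their shares, here and below, are therefore not at like depth. In the oe-pep library Sstr5 was again the 1 receptor past 2-fold lower, beside 4.93% of tested genes, and 0 were past 2-fold higher, beside 4.54%. The median there was -0.10, against -0.00 for all tested genes. The interval lay below 1 for Sstr5, Npy1r, Npy2r and Npy5r (4 of 8, beside 11.7%) and above 1 for Sstr4 (1 of 8, beside 11.7%), which makes 5 of 8 in either direction, beside 23.3%. Both comparisons share the vehicle library, so a chance high or low count in that library enters both, and a like result in the 2 is not independent evidence.

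**Figure D2:**
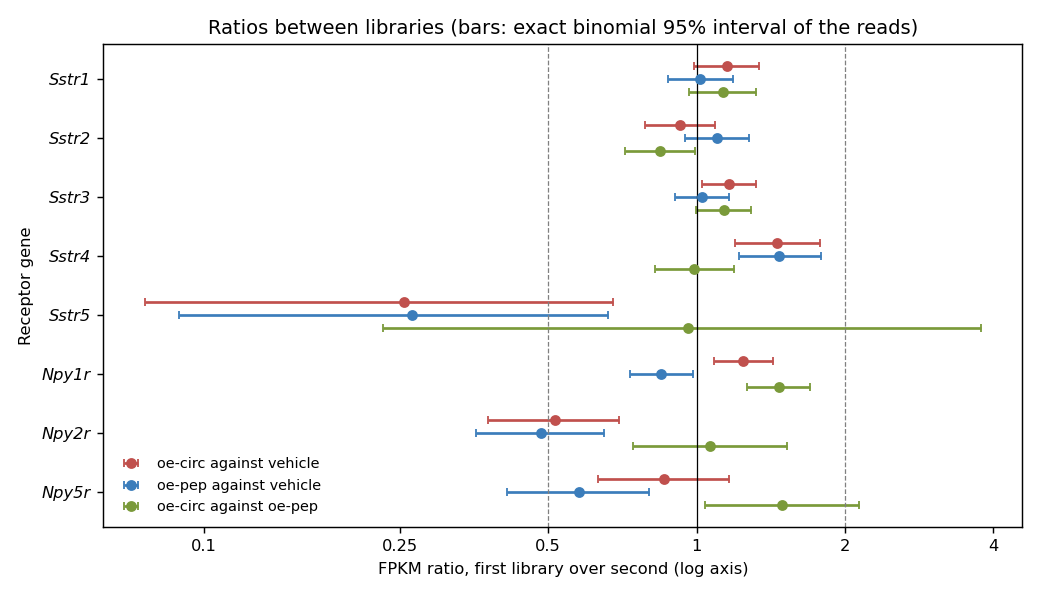
FPKM ratio (log axis) of each receptor for oe-circ against vehicle, oe-pep against vehicle and oe-circ against oe-pep, with exact binomial 95% intervals of the reads. Dashed lines mark 2-fold. Npy2r and Sstr5 lie below 1 and Sstr4 above 1 in both comparisons with the vehicle, while Npy1r lies on opposite sides of 1.

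Npy2r, the presynaptic NPY receptor, was lower in both overexpression libraries. Its FPKM was 2.44 in the vehicle library (153 reads, 95% interval 2.07 to 2.86), 1.26 in oe-circ (62 reads, 0.966 to 1.61) and 1.18 in oe-pep (67 reads, 0.916 to 1.50). The interval of the vehicle library overlapped neither of the other 2, which overlapped each other. Npy2r was 1.94-fold lower in oe-circ (95% interval 1.44 to 2.65) and 2.07-fold lower in oe-pep (1.54 to 2.80). On the log2(FPKM + 0.1) scale these were -0.90 and -0.99, just within the 2-fold threshold. Between the 2 overexpression libraries the ratio was 1.07 (0.742 to 1.53). The 1595 tested genes with a mean of 80 to 160 reads, the range of Npy2r, had 5th and 95th percentiles of -0.63 and 0.44 (oe-circ) and of -0.49 and 0.46 (oe-pep), so Npy2r lay below the 5th percentile in both.

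Npy5r, a receptor known in rodents for its part in feeding and often present in the same neurons as Npy1r, had an FPKM of 2.35 in the vehicle library (111 reads), 2.02 in oe-circ (75 reads) and 1.36 in oe-pep (58 reads). It was lowest in oe-pep. The oe-pep level was 1.73-fold lower than the vehicle level (95% interval 1.25 to 2.42; log2 fold change -0.75). For oe-circ the ratio was 0.859 (0.632 to 1.16), which the counts do not separate from 1. Set against each other, Npy5r was 1.49 times as high in oe-circ as in oe-pep (1.04 to 2.13).

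Npy1r, the postsynaptic receptor through which NPY lowers anxiety-like behavior in rodents, was the most abundant NPY receptor. Its FPKM was 6.60 in the vehicle library (422 reads), 8.22 in oe-circ (413 reads) and 5.60 in oe-pep (324 reads). It was highest in oe-circ and lowest in oe-pep. The ratio to the vehicle was 1.24 in oe-circ (95% interval 1.08 to 1.43; log2 fold change 0.31) and 0.848 in oe-pep (0.732 to 0.983; -0.23). The direct ratio of oe-circ to oe-pep was 1.47 (1.27 to 1.70), close to that of its neighbour Npy5r. All 3 differences were within 2-fold.

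The make-up of the NPY receptor mRNA therefore differed between the libraries (plot of shares). Npy1r made up 57.9% of the summed FPKM of the 3 receptors in the vehicle library, 71.5% in oe-circ and 68.8% in oe-pep. Npy2r made up 21.4%, 11.0% and 14.5%, and Npy5r 20.6%, 17.6% and 16.7%. The FPKM ratio of Npy1r to Npy2r was 2.70 in the vehicle library (95% interval 2.24 to 3.27), 6.52 in oe-circ (4.99 to 8.66) and 4.74 in oe-pep (3.63 to 6.26). Neither overexpression interval overlapped that of the vehicle library. The summed FPKM of the 3 was 11.4 and 11.5 in the vehicle and oe-circ libraries and 8.14 in oe-pep.

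Sstr4, a somatostatin receptor known from rodent cortex and hippocampus, was higher in both overexpression libraries. Its FPKM was 7.29 in the vehicle library (192 reads, 95% interval 6.29 to 8.39), 10.6 in oe-circ (220 reads, 9.26 to 12.1) and 10.7 in oe-pep (256 reads, 9.46 to 12.1). The vehicle interval lay below both others. The ratio to the vehicle was 1.46 in oe-circ (1.20 to 1.78) and 1.47 in oe-pep (1.22 to 1.79), with log2 fold changes of 0.54 and 0.55. The ratio of oe-circ to oe-pep was 0.989 (0.822 to 1.19). The 2318 tested genes with 160 to 320 mean reads had 95th percentiles of 0.37 and 0.33, so Sstr4 lay above the 95th percentile in both comparisons.

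Sstr5, best known from the pituitary and the pancreatic islets, was scarce in all 3 libraries. It had 25 reads in the vehicle library (FPKM 0.494, 95% interval 0.320 to 0.730), 5 in oe-circ (0.126, 0.0408 to 0.293) and 6 in oe-pep (0.131, 0.0481 to 0.285). The vehicle library was the high one, and its interval overlapped neither of the others. Sstr5 was 3.93-fold lower in oe-circ (1.48 to 13.1) and 3.77-fold lower in oe-pep (1.51 to 11.2), and the log2 fold changes were -1.40 and -1.36. Of the 1466 tested genes with 10 to 20 mean reads, the range of Sstr5, 8.12% were more than 2-fold lower in oe-circ and 4.98% in oe-pep. Their 5th percentiles were -1.19 and -0.999, and Sstr5 lay below both. With a mean of at least 20 reads required, Sstr5 left the set and 0 of the other 7 receptors were past 2-fold lower, beside 1.04% (oe-circ) and 0.385% (oe-pep) of the 14551 genes left. None of the 7 was past 2-fold higher either, beside 0.33% and 0.364%.

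**Figure D3:**
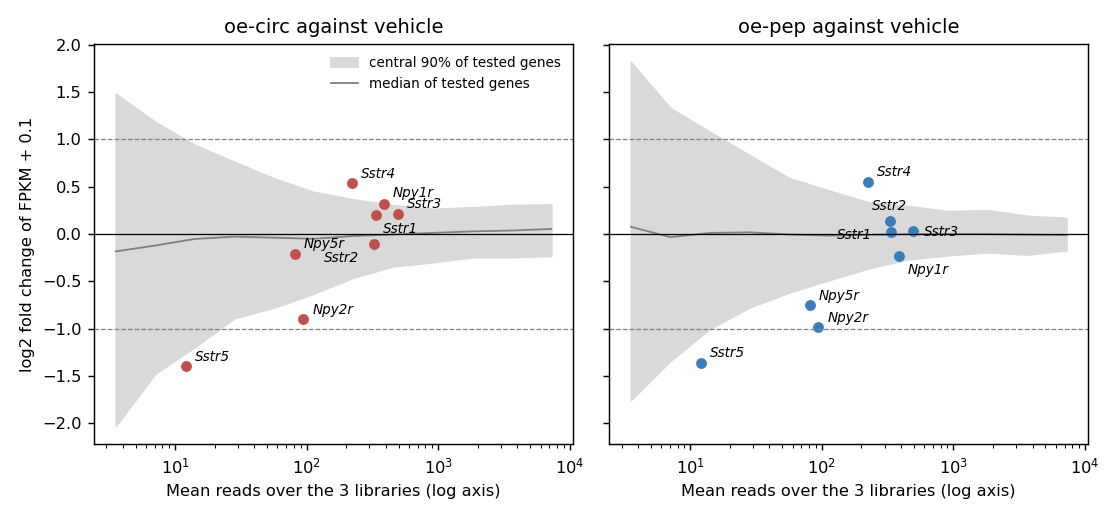
Log2 fold change on the log2(FPKM + 0.1) scale against mean reads over the 3 libraries (log axis) for the 8 receptors, over a grey band from the 5th to the 95th percentile of all tested genes in bins of reads, with their median as a line. Npy2r and Sstr5 lie below the band and Sstr4 above it in both panels, and Npy5r lies below it in oe-pep, while Npy1r in oe-circ, at 0.31, is at its upper edge (0.30 is the 95th percentile of genes with 320 to 640 reads).

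Sstr1, Sstr2 and Sstr3 differed little between the libraries. Sstr1, the highest in the vehicle library, was at an FPKM of 9.43, 10.9 and 9.60 (vehicle, oe-circ, oe-pep), and all 3 of its ratios had intervals that held 1. Sstr2, a receptor that curbs neuronal firing and is internalized after binding somatostatin, was at 9.10, 8.43 and 10.003. Neither of its ratios to the vehicle, 0.927 (0.788 to 1.09) and 1.10 (0.947 to 1.28), was separated from 1 by the counts, while the ratio of oe-circ to oe-pep was 0.843 (0.716 to 0.991). Sstr3, the ciliary receptor, was at 6.49, 7.56 and 6.66. It was highest in oe-circ, at 1.16 times the vehicle level (1.03 to 1.32), and in oe-pep the ratio was 1.03 (0.905 to 1.16).

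Summed over the 5 somatostatin receptors, FPKM was 32.8 in the vehicle library, 37.6 in oe-circ and 37.1 in oe-pep. Sstr4 made up 22.2% of this sum in the vehicle library, 28.3% in oe-circ and 28.9% in oe-pep. Sstr2 made up 27.7%, 22.4% and 26.9%, and Sstr5 1.51%, 0.335% and 0.353%. The FPKM ratio of Sstr4 to Sstr2 was 0.800 in the vehicle library (95% interval 0.668 to 0.956), 1.26 in oe-circ (1.05 to 1.51) and 1.07 in oe-pep (0.911 to 1.26). Sstr2 was thus above Sstr4 in the vehicle library and below it in oe-circ, and in oe-pep the counts did not separate them.

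**Figure D4:**
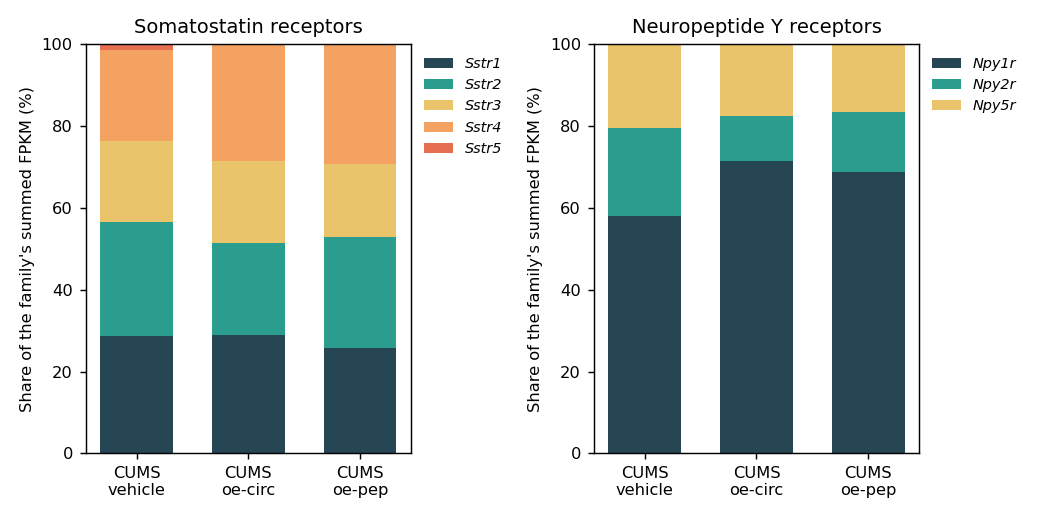
Share of each receptor in the summed FPKM of its family (%, bars stacked to 100) in the 3 libraries, somatostatin receptors on the left and NPY receptors on the right. Sstr4 goes from 22.2% to 28.3% and 28.9% and Npy2r from 21.4% to 11.0% and 14.5%, in the order vehicle, oe-circ, oe-pep.

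Between the 2 overexpression libraries, 0 of 8 receptors were past 2-fold in either direction, beside 6.26% of tested genes lower and 4.31% higher in oe-circ. Among genes with a mean of 20 reads or more these shares were 0.921% and 0.33%. The interval lay below 1 for Sstr2 (1 of 8, beside 12.7%) and above 1 for Npy1r and Npy5r (2 of 8, beside 13.5%), which makes 3 of 8 in either direction, beside 26.2% of all tested genes. The median log2 fold change was 0.13, against 0 over all tested genes.

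Markers of neighbouring regions also differed between the libraries (plot of gene lists). For counts past 2-fold in gene lists, here and below, the shares of all tested genes were 6.42% lower in oe-circ and 4.93% in oe-pep. The shares higher were 3.5% and 4.54%. Of 12 markers of striatal projection neurons, 11 were more than 2-fold lower in oe-circ and 0 in oe-pep, and their summed FPKM was 730 in the vehicle library, 253 in oe-circ and 605 in oe-pep. Penk, which encodes enkephalin, was at 241, 65.5 and 152, and Adora2a, an adenosine receptor of indirect pathway neurons, had a log2 fold change of -2.06 in oe-circ and -0.19 in oe-pep. Of 12 markers of the septum and of cholinergic neurons, 11 were more than 2-fold lower in oe-circ and 5 in oe-pep, with summed FPKM of 36.4, 8.47 and 16.5. The 5 in oe-pep were Lhx8, Gbx1, Ngfr, Dlk1 and Baiap3. No marker of either list was at 0 reads in any library. Counted without a threshold, 12 of 12 striatal markers were below 0 on the log2 scale in oe-circ and 9 of 12 in oe-pep. Npy2r and Sstr5, lower in both overexpression libraries, differed in the same direction as the sums of both lists. Their levels were nearly equal in oe-circ and oe-pep, where both marker sums differed. Single markers of the septal list were not alike in this. Ngfr was at 3.01, 0.618 and 0.710, while Chat was at 2.18, 0.351 and 1.09. Of these 12 markers, 9 had an oe-circ to oe-pep ratio interval wholly below 1, beside 12.7% of all tested genes. Sstr4 was higher where the sums of both lists were lower. The part of these markers in the receptor differences was not tested.

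Among 15 markers of glia, vessels and ependyma, 0 were past 2-fold in oe-circ and 4 were more than 2-fold higher in oe-pep, namely the ependymal genes Foxj1, Ccdc153 and Tmem212 and the choroid plexus gene Ttr. The summed FPKM of the 15 was 519, 471 and 733 (vehicle, oe-circ, oe-pep), and the myelin gene Mbp (314, 269 and 489) took most of it. Npy1r and Npy5r were lowest in oe-pep, the library where this sum was highest, and the part of these cells in that difference was not tested.

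Markers of the cortex itself were measured at high levels, with Slc17a7, the glutamate transporter of cortical excitatory neurons, at an FPKM of 235, 277 and 253. Of 16 excitatory markers, Foxp2 alone was past 2-fold, lower in oe-circ (-1.03), and the list medians were 0.24 in oe-circ and 0.07 in oe-pep. These markers differed in direction in oe-circ. The ratio interval there lay below 1 for 5 of the 16 (beside 12.3% of all tested genes) and above 1 for 10 (beside 12.8%). Of 12 markers of somatostatin interneurons, the cells that make the ligand, 0 passed 2-fold in either comparison. Their medians were 0.03 and -0.21. The ratio interval lay below 1 for 5 in oe-circ (beside 12.3% of all tested genes) and for 7 in oe-pep (beside 11.7%). It lay above 1 for 2 in oe-circ (beside 12.8%) and for 2 in oe-pep (beside 11.7%). Calb1 was at 29.8, 30.6 and 22.7, and Crhbp at 11.1, 14.7 and 13.2. Of 12 markers of other GABA neurons 0 passed 2-fold, with medians of 0.02 and -0.13. Lamp5, a marker of neurogliaform cells, many of which make NPY, was at 48.7, 81.2 and 54.5. Members of this list differed in direction in oe-circ, where the log2 fold change was 0.73 for Lamp5 and 0.04 for Ndnf, also a neurogliaform marker. For Gad1, Slc32a1 and Gad2, genes that all GABA neurons use, it was -0.23, -0.66 and -0.80. The striatal markers above were also lower in oe-circ, and their part in these values and in that of Foxp2 was not tested.

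Of 9 genes that process or degrade peptides, 1 was past 2-fold, and the medians were 0.22 in oe-circ and 0.03 in oe-pep. That gene was Mme, the gene of neprilysin, a protease that degrades somatostatin and other peptides, at an FPKM of 1.86, 0.840 and 1.56 (log2 fold change -1.06 in oe-circ). The carboxypeptidase Cpe was the highest of the list, at 944, 902 and 941. The convertase Pcsk2 was at 49.3, 60.8 and 53.0.

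Downstream of the receptors, 1 of 21 G protein signaling genes passed 2-fold, with medians of 0.07 in oe-circ and 0.03 in oe-pep. It was Adcy5, the main adenylyl cyclase gene of the striatum, lower in oe-circ (79.5, 39.1 and 72.2; log2 fold change -1.02), together with the striatal markers above. The Gi/o subunit genes Gnai1 (79.0, 83.2 and 78.1) and Gnao1 (67.1, 65.3 and 66.9) lay within 0.10 of 0 on the log2 scale in both comparisons. Kcnj3, a subunit of the potassium channel that these receptors open, was higher in oe-circ within 2-fold (0.61), and in oe-pep its log2 fold change was 0.12. The subunits Kcnj6 (0.59 and 0.05) and Kcnj9 (0.34 and 0.25) were also above 0. Kcnj5, with 21, 5 and 6 reads, went the other way (-0.98 and -0.96). Of 16 genes of the neuronal primary cilium, the compartment of Sstr3, 0 passed 2-fold in either comparison, with medians of -0.05 and -0.07. Adcy3, the ciliary cyclase, had log2 fold changes of -0.05 and 0.00.

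**Figure D5:**
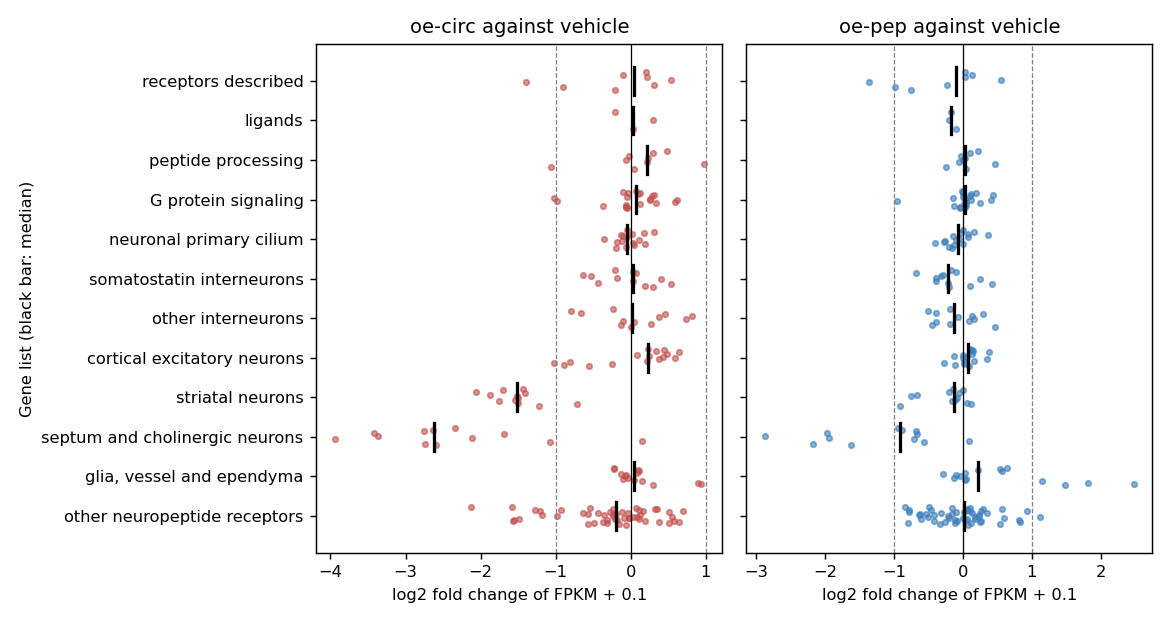
Log2 fold change on the log2(FPKM + 0.1) scale of every tested gene of each list (points) with the list median (black bar), for oe-circ and oe-pep against vehicle. Dashed lines mark 2-fold. The striatal list has its median at -1.51 in oe-circ and -0.13 in oe-pep, and the receptors described at 0.05 and -0.10.

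Of 51 tested receptors of other neuropeptides, 8 were more than 2-fold lower in oe-circ (beside 6.42% of all tested genes) and 0 in oe-pep (beside 4.93%). Of the 8, only Tacr1, Tacr3, Oprk1 and Nmbr had a mean of at least 20 reads. In the other direction, 0 and 1 were more than 2-fold higher (beside 3.5% and 4.54%), and the medians were -0.19 and 0.02. Among the 37 of the 51 with a mean of at least 20 reads, Nmbr, Tacr1 and Oprk1 were nearest to Sstr5 in both log2 fold changes. Their Euclidean distances were 0.76, 0.90 and 0.90 over 3 libraries. Nmbr, the neuromedin B receptor, had 79, 19 and 45 reads, and Tacr1, the substance P receptor, 203, 47 and 128. Both were nearer to the vehicle in oe-pep (-0.61 and -0.49) than Sstr5 was (-1.36), which makes up most of the distance.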

How the data were processed

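RNA of PrL tissue was extracted with TRIzol and libraries were made with a stranded mRNA kit. The programs cutadapt 2.5, HISAT2 2.1.0, featureCounts 1.6.3 and the mm10 build are listed in the submitters' processing notes. The authors deposited FPKM and gene length in 1 table. The methods of the study state limma with |log2 fold change| above 1. That size was kept here, and no P value was computed with 1 library per group. FPKM times gene length gave whole reads within 0.01 read for all values.

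Samples were grouped by the vector in their labels. The receptors and the 13 gene lists were chosen with earlier results of these data known. Named were all 8 receptors, the ligands and other NPY receptors, up to 4 genes of highest mean FPKM of each other list and those past 2-fold with a mean of at least 20 reads, and the 3 receptors nearest to a receptor past 2-fold. Not all of these are printed. Adcy3, Kcnj3, Kcnj5, Kcnj6, Kcnj9, Gad2, Slc32a1 and Ndnf were named outside the rule, after their values were seen. A marker of the list of glia, vessels and ependyma was left out and is not reported here. The bins of reads were also chosen after seeing the data.

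Alternatives were pseudocounts of 0.01 and 1, median-ratio scaling, nuclear genes alone, no filter and a mean FPKM of at least 1. A limit of 20 mean reads was chosen after seeing the data. The steps were tested on simulated data. Of the gene identifiers, 99.9% were found in GENCODE vM21, and 98.3% had equal coordinates. Copies were searched with minimap2 2.31-r1302 and coding sequences aligned with Biopython 1.88. Intervals were computed with scipy 1.17.1, tables with pandas 2.3.3 and numpy 2.4.6 in Python 3.11.15, and plots with matplotlib 3.10.9.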

Additional observations from a re-analysis of the deposited data

Results flagged for a closer look

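Npy1r had opposite directions in the 2 comparisons with the vehicle library, with log2 fold changes of 0.31 in oe-circ and -0.23 in oe-pep. Both share the vehicle library, and the difference was not tested over mice, since each group had 1 library. The direct ratio of oe-circ to oe-pep was 1.47, with a counting interval of 1.27 to 1.70.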

How the results depend on the processing

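With 1 library per group no replicate could be left out. No paired analysis was possible because each group had 1 library and the labels carry no replicate numbers. The count of receptors more than 2-fold lower was 1 in each comparison with the vehicle and rested on Sstr5 alone. It became 0 in both with a pseudocount of 1, with a mean FPKM of at least 1 and with a limit of 20 mean reads (chosen after seeing the data), and 2 in oe-pep with a pseudocount of 0.01, where Npy2r joined. With a pseudocount of 1 the log2 fold change of Sstr5 was -0.41 in oe-circ and -0.40 in oe-pep. All 162 values of single receptors under the alternatives kept their sign, and the other 160 moved by less than their counting interval. Some of these values could not move, because a filter only decides which genes are kept. They were 24 values without a filter, 21 at a mean FPKM of at least 1 and 21 at 20 mean reads. Only the pseudocounts, the median-ratio scaling and the use of nuclear genes alone could have moved a value. Scaling moved no library against another by more than 0.0095 on the log2 scale. Depth limits Sstr5 (5 to 25 reads), Npy4r and Npy6r most.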

Other observations

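Outside the receptors described, the receptors of other neuropeptides with a mean of at least 20 reads that were more than 2-fold lower in oe-circ were Tacr1, Tacr3, Oprk1 and Nmbr. Tacr3, the neurokinin B receptor, had 96 reads in the vehicle library and 13 in oe-circ (log2 fold change -2.13), and Oprk1, the kappa opioid receptor, had a log2 fold change of -1.27. Cckbr, the main cholecystokinin receptor of the cortex, was at an FPKM of 20.5, 26.3 and 25.2 (vehicle, oe-circ, oe-pep), and its ligand gene Cck at 265, 344 and 252.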
